A study of Mus with 6 samples.

Results

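DNA replication and cell division genes were examined in livers of wild type mice (WT) and of mice carrying a knock out of Fabp4 (FABP4-/-, here KO or knockout). They are 45 genes chosen by function, of 48882 genes in the deposited matrix: 11 genes of replication licensing, 8 of DNA synthesis, 5 of nucleotide supply, 2 of chromatin copying, 6 of the G1/S switch and 13 of mitosis. The first 4 groups, 26 genes, are called S-phase members. Both groups of mice were fed the Lieber-Decarli ethanol liquid diet for 8 weeks and then given 1 ethanol binge, a regimen for alcoholic steatohepatitis (ASH), a fatty liver disease with inflammation. The comparison asks what differs in the ASH liver when Fabp4, a fatty acid-binding protein, is missing. Livers of mice fed no ethanol were not analysed here. There were 3 libraries of each genotype, from flash-frozen tissue, and the wild type animals were littermates. The labels do not say how the knockout was made, how old the animals were or of which sex, or whether a library is 1 mouse, so the spread between replicates may be technical. Values are TPM, transcripts of a gene relative to all transcripts, a level corrected for gene length, so that levels of different genes can be set side by side.

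A cell that enters the cycle first raises D-type cyclins, which free the E2F transcription factors. E2F then switches on cyclin E and the genes that load the MCM helicase on DNA, make nucleotides and copy the chromosomes. Mitotic genes such as cyclin B, Plk1 and the Aurora kinases follow later, in G2, and their proteins drive chromosome segregation. Most hepatocytes of an adult liver rest outside the cycle, and they re-enter it after injury. Hepatocytes can also copy DNA without dividing, which leaves them polyploid, and Kupffer cells, the resident macrophages, can divide in place.

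Fabp4 itself was at 14.7, 8.15 and 19.96 TPM in wild type livers and listed without a value, taken as 0, in the 3 knockout libraries. All 8 hepatocyte markers had a value in every library, with a summed level of 120956 to 128410 TPM. Most of that sum was Alb, at 98737.8 TPM in every library, the top value that the normalized columns share. The sum therefore cannot show whether the libraries held equal shares of hepatocytes. Wild type replicate 2 lay apart on the first principal component over all genes and knockout replicate 1 on the second. The depth of the libraries is unknown, since TPM keeps none.

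The members were low in these livers but nearly all were at a higher mean in the knockout. The mean over the 6 libraries ran from 0.143 TPM for the mitotic checkpoint kinase Bub1 to 102 TPM for cyclin D1 (Ccnd1). The knockout mean TPM was above the wild type mean for 43 of the 45, where 54.3% of all genes with a value were. The exceptions were the replication initiator Mcm10 and the mitotic survivin gene Birc5. For 13 of the 45, all 3 knockout libraries lay above all 3 wild type libraries, against 6.31% of all genes with a value, and for 0 they all lay below. Among those tested, as described next, it was 10 of 40 (8.94% of all genes tested), and 0 lay below (4.38%). The 13 were Mcm5, Cdc6, Cdt1, Lig1, Rrm2, Tk1, Hells, Uhrf1, Ccne2, Cdk2, Bub1, Plk1 and Stmn1. These 13 by necessity also had knockout replicates 1 and 2 above every wild type library. No other member did, where 9.9% of all genes with a value did.

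No single member passed the test over all genes. Of the 45, 40 reached a mean of 0.5 TPM and were tested. Cdc6, Birc5, Aurkb, Bub1 and Plk1 did not reach it. Of the 40, 7 (Pole, Hells, Uhrf1, Ccne1, E2f2, Ccnb1 and Cdk1) reached it with a wild type mean below it, so counts over the 40 lean towards higher knockout values and are descriptions only. With limma on log2(TPM + 1) and Benjamini-Hochberg adjustment, 0 of the 40 passed at 0.05, where 0.00706% of the 14155 genes did (1 gene, Fabp4). The smallest adjusted p of a member was 0.449. At an unadjusted limma p under 0.05 there were 10 members, all higher in the knockout, against 5.12% of all genes tested that were higher and 2.91% that were lower. They were Mcm3, Cdt1, Prim1, Lig1, Rrm2, Tk1, Ccnd1, Ccne2, Cdk2 and Stmn1. The log2 difference, knockout minus wild type, was above 0 for 38 of the 40 (57.4% of all genes), with a median of 0.64 against 0.04 over all genes. After median scaling 37 of the 40 were higher, beside 50.5% of all genes, and 9 had an unadjusted limma p under 0.05, all higher, beside 3.99%.

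Of the 6 libraries left out singly, the median difference of the members fell most without knockout replicate 3. Knockout replicate 3 was the highest of the 6 libraries for 34 of the 45 members, where it was for 18.6% of all genes with a value. This library is named because it was high for these same genes, so smaller differences without it follow in part from that choice. Without it, the median difference of the members was 0.33, and 32 of the 35 that then reached 0.5 TPM were higher, beside 56.4% of all genes. At an unadjusted limma p under 0.05 there were then 6, Prim1, Rrm2, Tk1, Ccne2, Cdk2 and Stmn1, beside 3.02% of all genes higher, and all 6 were among the 10. Both other knockout libraries lay above all wild type libraries for 9 of these 35, against 12.6% of all genes. On leaving out wild type replicate 3, 5 of 40 were higher at an unadjusted limma p under 0.05, beside 751 of all 14224 genes. On leaving out knockout replicate 2 it was 21 of 37, beside 652 of all 14194 genes.

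**Figure D1:**
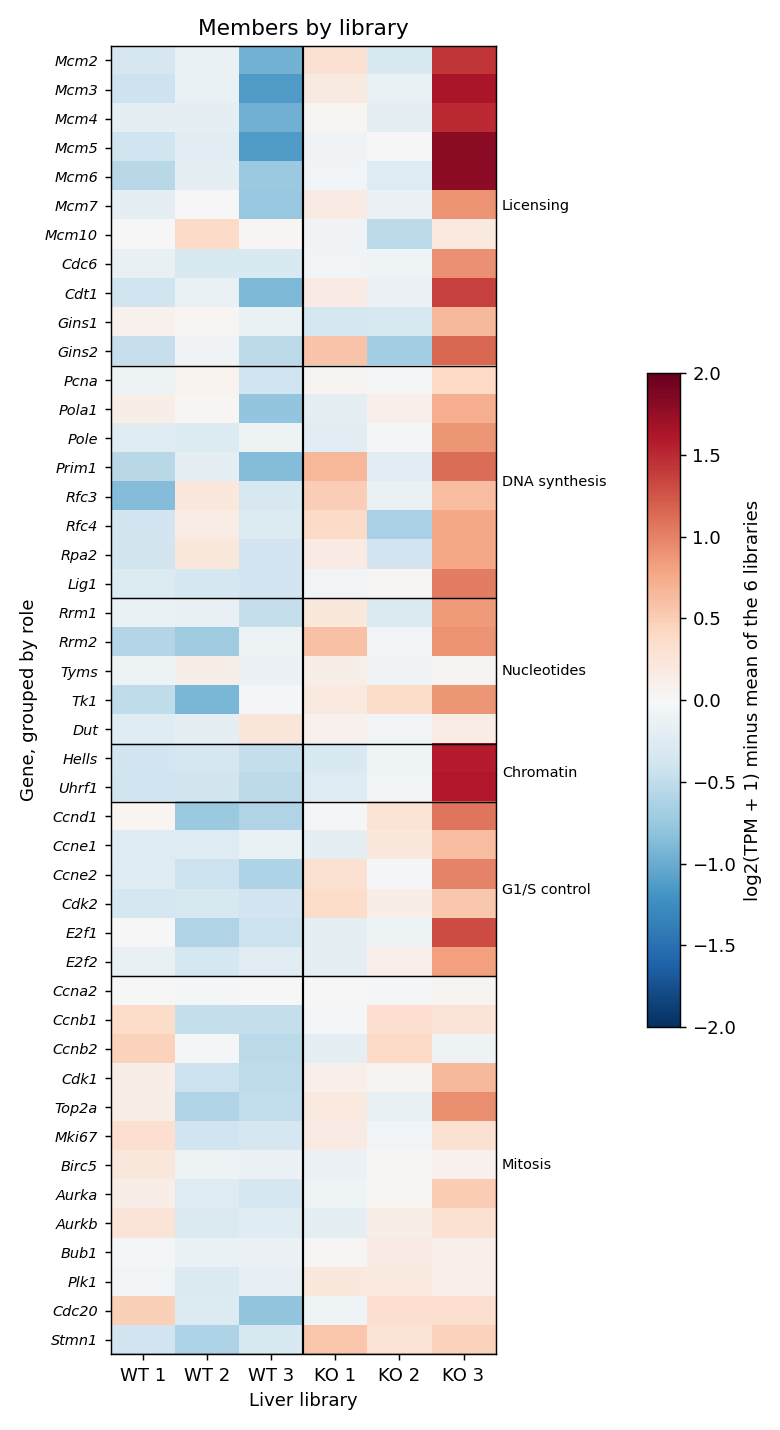
Level of each of the 45 genes in the 6 libraries, as log2(TPM + 1) centred on each gene's average (red above, blue below), with rows grouped by role and columns by library. The column of knockout replicate 3 is red for most genes from licensing to G1/S control and pale for most of the mitotic genes.

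Of the 11 licensing genes, 10 were highest in knockout replicate 3. Mcm2 to Mcm7 encode the 6 subunits of the ring helicase that is loaded at origins before S phase. In knockout replicate 3 these 6 genes were at 13.03 to 18.5 TPM, and in the other 5 libraries at 0.831 to 10.7 TPM. Mcm3 (mm10 chromosome 1, 20803014 to 20820213, minus strand) was at 3.08, 3.94 and 1.49 TPM across the wild type group, and at 5.18, 3.93 and 15.8 TPM in the knockout. Knockout replicate 2 lay just below the highest wild type library, and 1 knockout library stood well above the rest (log2 difference 1.12, SE 0.46, limma adjusted p 0.599; 0.58 without knockout replicate 3).

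Mcm5 (chromosome 8, 75109508 to 75128439, plus strand) was at 2.04, 2.48 and 0.831 TPM in wild type livers and at 2.80, 3.04 and 13.03 TPM in the knockout. The groups did not overlap, but 2 of the 3 knockout values lay just above the highest wild type value. Its log2 difference, 1.16 (SE 0.50), was the largest among the tested licensing genes and had a limma adjusted p of 0.629. Mcm7, the most abundant, was at 8.13, 9.48 and 5.18 TPM across the wild type group, and at 10.7, 8.67 and 18.5 TPM in the knockout, and the groups overlapped (0.63, SE 0.30). Knockout replicate 3 exceeded the next highest library 4.29 times for Mcm5 and 1.73 times for Mcm7, the ends of the range for the 6. Wild type replicate 3 was the lowest library for all 6, as it was for 19.8% of all genes tested.

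Cdc6 and Cdt1 load the MCM ring onto the origin recognition complex. Cdt1 was at 1.51, 2.003 and 0.769 TPM in wild type livers and at 2.71, 2.05 and 7.54 TPM in the knockout, without overlap (log2 0.95, SE 0.39, limma adjusted p 0.595). Cdc6 was barely detected, at 0.133, 0.0190 and 0.0186 TPM across the wild type group, and at 0.213, 0.195 and 1.36 TPM in the knockout. Both were highest in knockout replicate 3, by 2.78 and 6.40 times the next library.

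Mcm10, which activates the loaded helicase and is not part of the ring, did not follow. It was at 7.48, 10.1 and 7.62 TPM in wild type livers and at 7.14, 4.93 and 8.70 TPM in the knockout (log2 -0.26, SE 0.21, limma adjusted p 0.788). Its groups overlapped and its highest library was wild type replicate 2. The GINS subunit genes Gins1 and Gins2, partners of the active helicase, were both highest in knockout replicate 3 (5.46 and 4.04 TPM) and both lower in knockout replicate 2 than in every wild type library (2.36 and 0.423 TPM). In knockout replicate 1, Gins1 was also below every wild type library (2.26 TPM), while Gins2 was above them all (2.38 TPM).

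Among the 8 genes of DNA synthesis, knockout replicate 3 was the highest library for all 8, by 1.10 (Rfc3) to 3.72 times (Pole). Pcna, the sliding clamp that holds the polymerases on DNA, was the most abundant, at 49.8, 56.5 and 40.6 TPM across the wild type group, and at 55.5, 52.6 and 70.7 TPM in the knockout. These values overlapped (log2 0.28, SE 0.17, limma adjusted p 0.729), the smallest difference of the group. Prim1, the catalytic primase subunit that starts each new strand, was at 3.78, 5.21 and 2.85 TPM in wild type livers and at 10.2, 5.08 and 14.2 TPM in the knockout. Only knockout replicate 2 fell within the wild type range, and the log2 difference was 1.06 (SE 0.34, limma adjusted p 0.536; 0.76 without knockout replicate 3).

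Lig1, the ligase that joins Okazaki fragments, was at 1.71, 1.58 and 1.51 TPM across the wild type group, and at 2.15, 2.39 and 5.69 TPM in the knockout. The groups did not overlap (log2 0.68, SE 0.28, limma adjusted p 0.599). The other 5, the polymerase subunits Pola1 and Pole, the clamp loader subunits Rfc3 and Rfc4 and the single-strand binding protein Rpa2, overlapped between groups. Pole, the catalytic subunit of the leading strand polymerase, was at 0.286 to 0.501 TPM in 5 libraries and at 1.86 TPM in knockout replicate 3.

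Nucleotide supply split within its 5 genes. Tk1, the cytosolic thymidine kinase, was at 7.31, 5.21 and 10.5 TPM in wild type livers and at 12.4, 14.2 and 20.7 TPM in the knockout. Rrm2, the regulatory subunit of ribonucleotide reductase that is made in S phase, was at 1.79, 1.55 and 2.88 TPM across the wild type group, and at 5.24, 3.01 and 6.76 TPM in the knockout. For both genes every knockout library lay above every wild type library. A two-sided exact permutation test gave p 0.1, as low as 3 against 3 libraries can reach. The log2 differences were 0.97 (SE 0.26, limma adjusted p 0.522) for Tk1 and 0.94 (SE 0.27, limma adjusted p 0.536) for Rrm2, and 0.76 and 0.73 without knockout replicate 3.

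Tyms, thymidylate synthase, which makes thymidylate by the other route, was close to level at 1.80, 2.28 and 1.78 TPM in wild type livers and 2.25, 1.87 and 2.13 TPM in the knockout (log2 0.06, SE 0.14). Dut, which removes dUTP, overlapped too, at 5.002 to 7.44 TPM in wild type livers and 5.86 to 6.88 TPM in the knockout. These 2 and Mcm10 were the 3 S-phase members for which knockout replicate 3 was not the highest library.

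Both genes of chromatin copying were far higher in knockout replicate 3 than elsewhere. Uhrf1 binds newly copied, hemimethylated DNA and recruits the maintenance methyltransferase, and Hells is a chromatin remodeller of the same pathway. Uhrf1 (chromosome 17, 56303337 to 56323486, plus strand) was at 0.237, 0.261 and 0.135 TPM in wild type livers and at 0.363, 0.559 and 3.92 TPM in the knockout, 7.001 times the next library. Hells was at 0.513, 0.563 and 0.418 TPM across the wild type group, and at 0.596, 0.846 and 4.87 TPM in the knockout, 5.75 times the next. In neither gene did the groups overlap, but their log2 differences of 0.85 (SE 0.45) and 0.79 (SE 0.45) had limma adjusted p-values of 0.693 and 0.713. The difference of Hells was 0.20 without knockout replicate 3.

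Among the 6 G1/S switch genes, knockout replicate 3 exceeded the next library least for Cdk2 (1.14 times). Cdk2, the kinase partner of cyclins E and A (chromosome 10, 128697939 to 128705051, minus strand), was at 4.30, 4.40 and 4.16 TPM in wild type livers and at 7.73, 6.40 and 8.77 TPM in the knockout. The wild type values were nearly equal, the groups lay well apart, and the log2 difference was 0.70 (SE 0.14, limma adjusted p 0.522) with and 0.60 without knockout replicate 3. Ccne2, cyclin E2, was at 1.53, 1.23 and 0.953 TPM across the wild type group, and at 2.70, 1.94 and 4.97 TPM in the knockout, without overlap (0.85, SE 0.26, limma adjusted p 0.536).

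Ccnd1, the cyclin that responds to growth signals, was at 95.4, 55.0 and 60.9 TPM in wild type livers and at 90.9, 113 and 197 TPM in the knockout. Wild type replicate 1 lay above knockout replicate 1, and the log2 difference was 0.88 (SE 0.31, limma adjusted p 0.564). Cyclin E1 (Ccne1) was at 0.242 to 0.359 TPM across the wild type group, and at 0.309, 0.722 and 1.29 TPM in the knockout (0.43, SE 0.22). The E2F activators E2f1 and E2f2 reached 4.18 and 1.54 TPM in knockout replicate 3, 3.81 and 2.80 times the next library, and their groups overlapped. Knockout replicate 3 was the highest library for all 6 genes of this group.

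The strand setting of the authors' counting is not stated, so reads of genes on opposite strands cannot be told apart where they overlap. On mm10, 9 members overlap an opposite-strand gene of at least 1 TPM. Ccnd1 shares 1216 bases with Oraov1, whose mean was 26.9 TPM in wild type livers and 48.1 TPM in the knockout, Ccne2 shares 5622 bases of its span with Ints8 (8.82 and 10.9 TPM), and Tk1 shares 169 bases with Afmid (32.2 and 37.5 TPM). Lig1 shares 1409 bases with 6330408A02Rik (1.47 and 1.57 TPM). Cdk2, Rrm2, Prim1, Stmn1 and Mcm2 to Mcm7 are not among the 9.

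**Figure D2:**
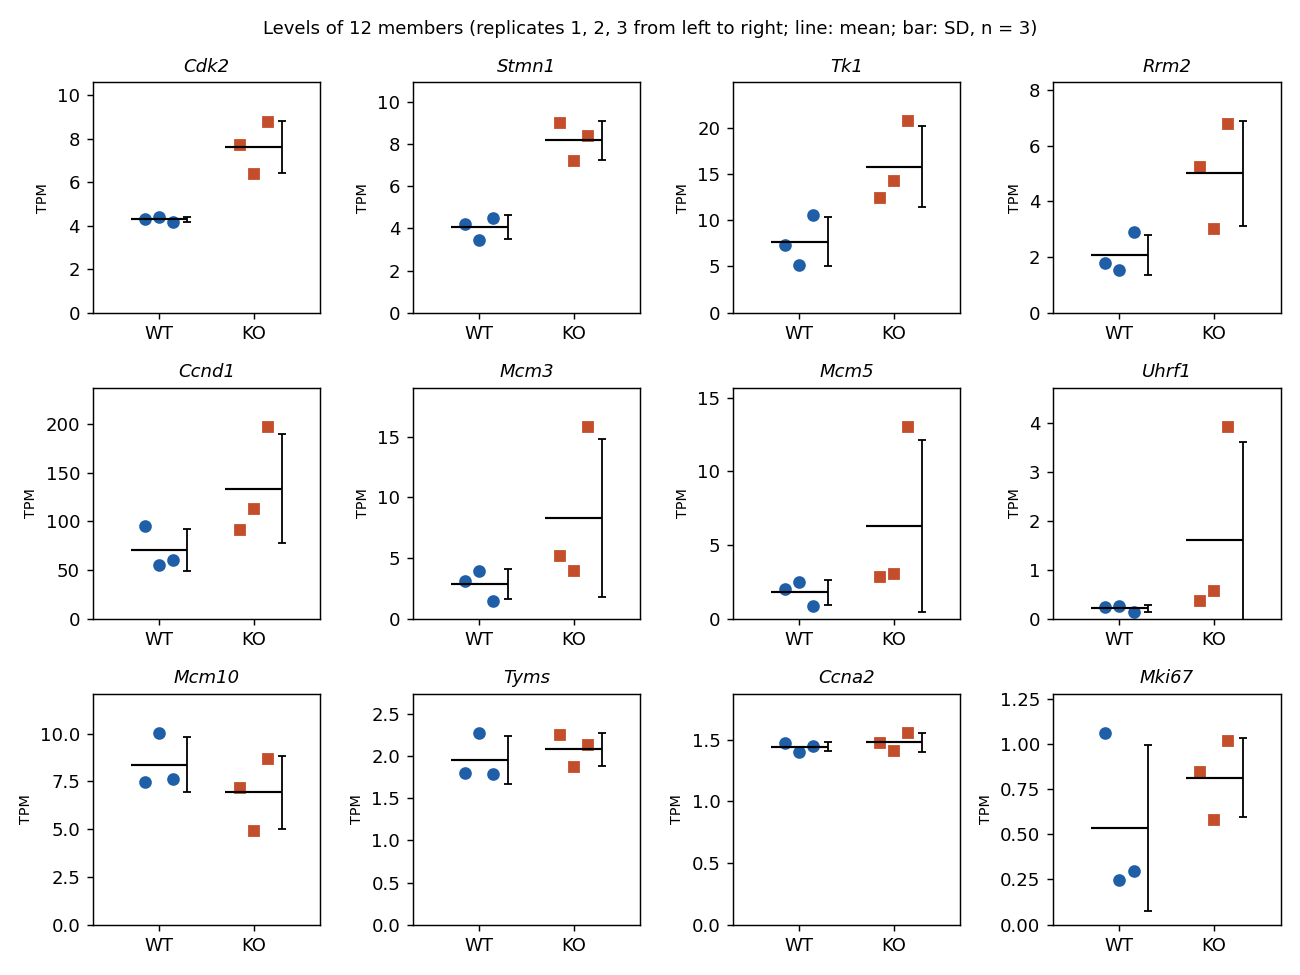
TPM of selected members in each library, wild type as blue circles and knockout as red squares, with replicates 1, 2 and 3 from left to right, the line at the mean and the bar giving the SD (n = 3). Cdk2, Stmn1, Tk1 and Rrm2 separate the groups in every library, Ccnd1, Mcm3, Mcm5 and Uhrf1 are far higher in knockout replicate 3 than elsewhere, and Mcm10, Tyms, Ccna2 and Mki67 overlap.

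The mitotic members were at low levels, and 5 of the 13 were highest in knockout replicate 3. Stmn1 aside, none exceeded 2.69 TPM in any library. Stmn1, stathmin, a microtubule destabiliser that other cell types also use (chromosome 4, 134468320 to 134473843, plus strand), was at 4.23, 3.43 and 4.51 TPM in wild type livers and at 8.99, 7.17 and 8.36 TPM in the knockout. The groups lay far apart, and no knockout library stood out. Its log2 difference of 0.86 (SE 0.15) had the smallest limma adjusted p of all members, 0.449, and was 0.84 without knockout replicate 3. A two-sided exact permutation test gave 0.1 here too.

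Ccna2, cyclin A, which serves both S phase and mitosis, had the smallest difference of the mitotic members, at 1.47, 1.40 and 1.45 TPM across the wild type group, and at 1.47, 1.41 and 1.56 TPM in the knockout. Its log2 difference of 0.02 (SE 0.13) turned to -0.02 after median scaling and to -0.002 without knockout replicate 3. It shares 863 bases with Exosc9, an opposite-strand gene at 20.1 TPM in wild type livers and 19.98 TPM in the knockout. Plk1, the polo kinase, was at 0.174 TPM, without a value and at 0.0885 TPM in wild type livers and at 0.412, 0.398 and 0.314 TPM in the knockout. Bub1 was at 0.110, 0.0447 and 0.0454 TPM and at 0.158, 0.271 and 0.226 TPM. Neither overlapped between groups, and both were too low to be tested.

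The remaining mitotic genes overlapped, and wild type replicate 1 was high for most of them. Mki67, the proliferation antigen Ki-67, was at 1.06, 0.244 and 0.297 TPM across the wild type group, and at 0.842, 0.580 and 1.02 TPM in the knockout. The B-type cyclin Ccnb1 was at 0.930, 0.0834 and 0.0846 TPM in wild type livers and at 0.482, 0.905 and 0.803 TPM in the knockout. The anaphase activator Cdc20 was at 1.69, 0.596 and 0.110 TPM across the wild type group, and at 0.812, 1.43 and 1.44 TPM in the knockout. Ccnb2 and Birc5 were likewise highest in wild type replicate 1. That library was the highest for 5 of the 13 mitotic members and for 0 of the 26 S-phase members, beside 16.8% of all genes with a value. Without it, 5 of the 8 mitotic members then tested had an unadjusted limma p under 0.05, all higher (6.03% of all genes), and for 6 of the 8 all knockout libraries lay above both wild type libraries (17.3% of all genes). With it these counts were 1 and 1 of 9, and the median log2 difference was 0.39 with and 0.62 without it. This library is named because it was high for these same genes, so higher counts without it follow in part from that choice. Leaving out any other single library gave 1 or 2 mitotic members higher at an unadjusted limma p under 0.05, of 8 or 9 tested. Over all genes that was 426 to 751 of 14082 to 14224.

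Among the mitotic members, knockout replicate 3 stood furthest above the next library for Top2a and Cdk1 (1.95 times for Cdk1). Wild type replicate 1 was the highest wild type library for both, unlike in the S-phase score. Cdk1, the kinase that drives mitotic entry, was at 0.818, 0.233 and 0.173 TPM in wild type livers and at 0.794, 0.736 and 1.60 TPM in the knockout. Top2a, the topoisomerase that untangles copied chromosomes, was at 1.13, 0.275 and 0.380 TPM across the wild type group, and at 1.23, 0.752 and 2.69 TPM in the knockout, and was the only mitotic member at least 2-fold higher in knockout replicate 3 than in the next library (2.19 times). The Aurora kinase genes Aurka and Aurkb were highest in knockout replicate 3 and next highest in wild type replicate 1.

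S-phase and mitotic members were set against each other in each library. Knockout replicate 3 was the highest for 23 of 26 S-phase members and for 5 of 13 mitotic members, and among those tested for 22 of 25 and 4 of 9, beside 20.5% of all genes tested. It was at least 2-fold above the next library for 10 of the 25 and 1 of the 9, beside 0.502% of all genes tested. The ratio to the next highest library, which needs no pseudocount, had a median of 1.71 over the S-phase members and 0.93 over the mitotic members. Over all genes tested it was 0.83. Wild type replicate 1 was the highest library for 5 of the 13 mitotic members, which holds their ratio below 1. Against the median of the other 5 libraries, the median ratio was 2.62 over the S-phase members, 1.80 over the mitotic members and 1.03 over all genes tested. The summed level of the S-phase members was 317 TPM in knockout replicate 3 and 117 to 184 TPM elsewhere, and that of the mitotic members was 21.9 TPM and 8.27 to 17.3 TPM.

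A score per library was taken as the mean over a group's genes of centred log2(TPM + 1). The S-phase score was -0.31, -0.14 and -0.48 in wild type replicates 1, 2 and 3 and 0.11, -0.16 and 0.99 in knockout replicates 1, 2 and 3. The mitotic score was 0.16, -0.30 and -0.34 in wild type and 0.05, 0.13 and 0.31 in the knockout. S-phase minus mitotic score was 0.68 in knockout replicate 3, at most 0.16 in the other libraries and lowest, at -0.47, in wild type replicate 1. The mitotic score of wild type replicate 1 lay within the range of the knockout libraries, and its S-phase score lay below all of them.

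**Figure D3:**
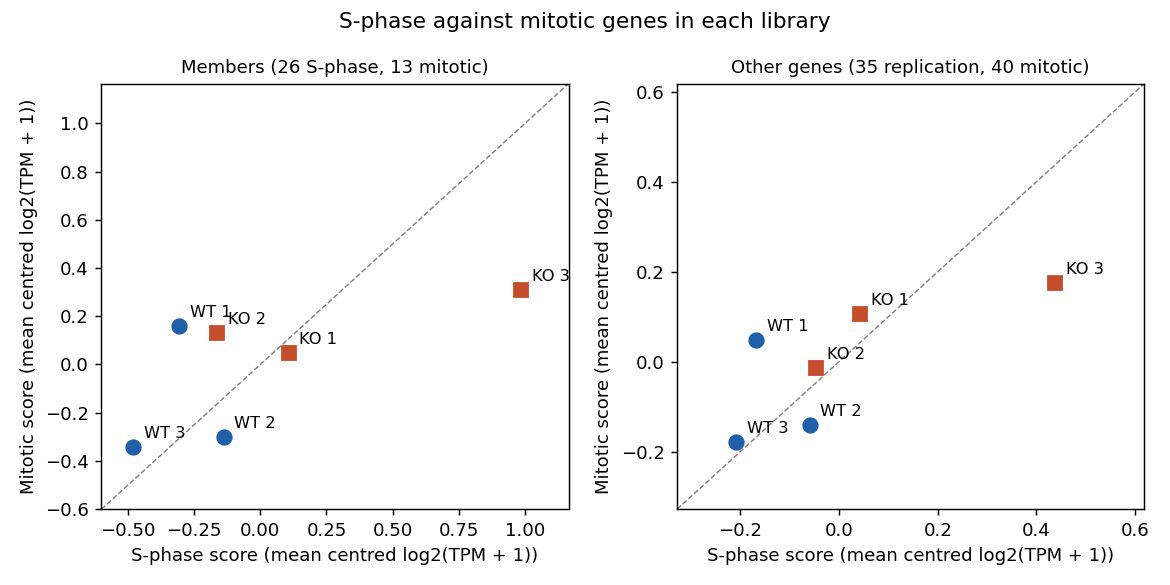
Mitotic score against S-phase score in each library, for the members (left) and for replication and mitotic genes that are not members (right). Each point is 1 library (wild type as blue circles, knockout as red squares), scores are mean centred log2(TPM + 1), and the dashed line marks equal scores. Knockout replicate 3 lies furthest to the right in both panels, with an S-phase minus mitotic score of 0.68 for the members and 0.26 for the other genes, where wild type replicate 1 lies at -0.22 on the other side of the line.

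Between the genotypes, the order of the 2 groups of genes depended on the pseudocount. The median log2 difference was 0.68 over the 25 tested S-phase members and 0.39 over the 9 tested mitotic members with a pseudocount of 1, and 0.91 and 0.996 with a pseudocount of 0.1. It is therefore not shown that S-phase genes differed more between genotypes than mitotic genes. With a pseudocount of 0.1 the S-phase minus mitotic score was 0.62 in knockout replicate 3 and 0.57 in wild type replicate 2, and -0.83 in wild type replicate 1 and -0.56 in knockout replicate 2, so that knockout replicate 3 did not stand apart from the rest on that scale.

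**Figure D4:**
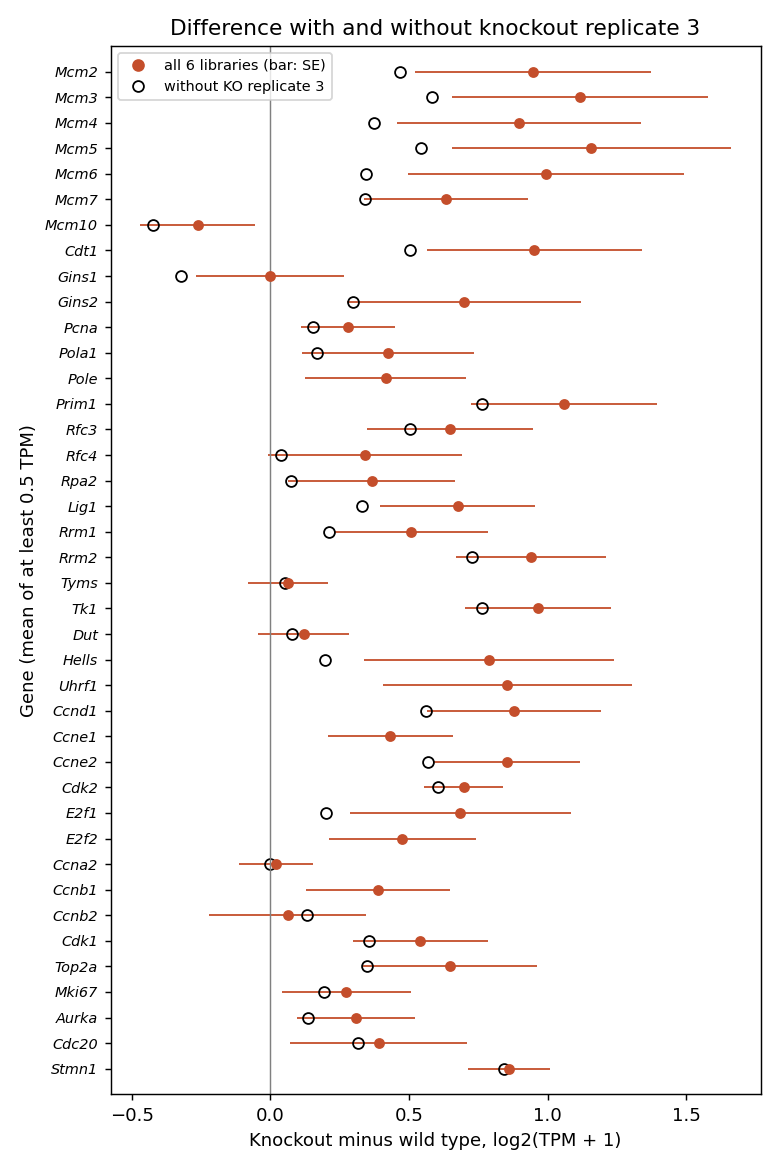
Difference between knockout and wild type on the log2(TPM + 1) scale for the 40 tested members, with all 6 libraries (filled, bar for the SE) and without knockout replicate 3 (open, where the mean then still reached 0.5 TPM). Open points of Mcm2 to Mcm6 and Hells lie far to the left of the filled ones, while those of Stmn1, Cdk2 and Tyms stay close.

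Genes of the same pathways outside the members were read in the same way. The replication minus mitotic score was highest in knockout replicate 3 (0.26) and lowest in wild type replicate 1 (-0.22) with a pseudocount of 1. With a pseudocount of 0.1 it was 0.36 in wild type replicate 2, above the 0.18 of knockout replicate 3, so that this order rests on the pseudocount. Of 35 other replication genes, 32 were tested, 30 were higher and 2 lower in the knockout (57.4% of all genes were higher), 10 had an unadjusted limma p under 0.05, all higher (5.12% of all genes), and 0 passed after adjustment. The 10 became 3 without knockout replicate 3, 4 without wild type replicate 3 and 5 without wild type replicate 1. Over all genes these counts were 426, 751 and 853. The 10 became 7 without wild type replicate 2, stayed 10 without knockout replicate 1 and became 13 without knockout replicate 2. Over all genes these were 488, 690 and 652, of 14082 to 14224 tested in the 6 fits. The median log2 difference of the 32 was 0.34. It was 0.14 without knockout replicate 3, with 22 of 31 higher (56.4% of all genes). Orc6, of the origin recognition complex, was at 3.86, 4.56 and 4.30 TPM in wild type livers and at 6.72, 5.34 and 7.88 TPM in the knockout. Slbp, which binds the histone mRNA stem-loop, was at 7.91, 9.54 and 8.52 TPM and at 11.6, 11.1 and 14.4 TPM, and the replisome adaptor Wdhd1 at 0.224, 0.564 and 0.213 TPM and at 0.804, 1.06 and 2.74 TPM. All 3 were without overlap (limma adjusted p 0.536 for Orc6 and Slbp and 0.557 for Wdhd1). Knockout replicate 3 was the highest library for 29 of the 35, beside 18.6% of all genes with a value.

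Of 40 other mitotic genes, only 17 were abundant enough to test. Of these, 13 were higher and 4 lower, 2 had an unadjusted limma p under 0.05, both higher, and 0 passed after adjustment (median log2 difference 0.18), beside 57.4% higher and 5.12% higher at that p among all genes. The 2 became 4 of 16 without wild type replicate 1, beside 6.03% of all genes. Without wild type replicate 2, 0 of 20 were higher at that p, beside 488 of all 14182 genes. Without knockout replicate 1 it was 0 of 17, beside 690 of all 14082 genes. The centromeric histone gene Cenpa was at 2.54, 1.82 and 2.17 TPM across the wild type group, and at 4.55, 3.06 and 3.24 TPM in the knockout. Cks2, a small subunit of cyclin-dependent kinases, was at 34.1, 26.3 and 37.6 TPM and at 53.8, 42.8 and 42.7 TPM. Both lay apart without overlap and were highest in knockout replicate 1, not 3. Incenp, of the chromosomal passenger complex, overlapped (log2 0.33, SE 0.18). Knockout replicate 3 was the highest library for 18 of the 40, beside 18.6% of all genes with a value. Among the 17 tested it was the highest for 4, near the 20.5% of all genes tested. Knockout replicate 1 was the highest for 6 of the 17, beside 3137 of all 14155 genes. The ratio of knockout replicate 3 to the next highest library had a median of 0.92, against 1.23 for the other replication genes and 0.83 for all genes tested. Against the median of the other 5 libraries, these were 1.55, 1.64 and 1.03.

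Of 14 other drivers of G1, 13 were tested, 9 higher and 4 lower, with 3 at an unadjusted limma p under 0.05, all higher, and 0 after adjustment. The share higher was near that of all genes, 57.4%, of which 5.12% were higher at that p. Those 3 were the phosphatase Cdc25a, which activates Cdk2, and the cyclins Ccnd2 and Ccnd3. Cdc25a was at 1.74, 1.36 and 1.85 TPM in wild type livers and at 2.51, 3.24 and 3.62 TPM in the knockout (log2 0.63, SE 0.16, limma adjusted p 0.522). Ccnd2 was at 3.24, 2.31 and 4.27 TPM and at 5.38, 5.15 and 5.66 TPM (0.61, SE 0.18, limma adjusted p 0.536), and Ccnd3 at 15.7, 12.3 and 16.5 TPM and at 20.5, 18.8 and 21.8 TPM (0.44, SE 0.15, limma adjusted p 0.553). In each the groups did not overlap, and knockout replicate 3 exceeded the next library by no more than 1.12 times.

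Markers of other liver cells moved with some of these scores, and their part in the results was not tested. In bulk tissue, fewer cells of a type and less RNA per cell cannot be told apart. The summed level of 12 macrophage markers was 555, 200.3 and 238 TPM in wild type livers and 377, 474 and 847 TPM in the knockout. Knockout replicate 3, wild type replicate 1 and knockout replicates 2 and 1 were in the same order as in the mitotic score. Wild type replicates 2 and 3 were lowest in both, in opposite order. All 12 had a value in every library. The S-phase score had another order, with wild type replicate 1 second lowest. The 8 endothelial markers summed to 88.4 to 124 TPM in wild type livers and 142 to 179.9 TPM in the knockout, without overlap. The 8 red cell and erythroblast markers summed to 372 to 429 TPM in wild type livers and 345 to 612 TPM in the knockout, highest in knockout replicate 3. Of the 7 tested, 6 were higher and 1 lower, where 57.4% of all genes were higher. The 1 lower was the erythroid factor Klf1, at 3.46 to 6.07 TPM in wild type livers and 2.74 to 3.40 TPM in the knockout. It had an unadjusted limma p under 0.05, beside 2.91% of all genes lower at that p, and 0 of the 7 passed after adjustment. The 6 B and plasma cell markers summed to 8.88 to 11.1 TPM in wild type livers and to 92.0, 14.8 and 19.2 TPM in the knockout, highest in replicate 1. The 8 stellate cell markers summed to 42.1 to 57.7 TPM in wild type livers and 62.5 to 64.6 TPM in the knockout, without overlap, and the 6 cholangiocyte markers to 45.5 to 80.7 TPM and 49.02 to 75.7 TPM. The 7 T and NK cell markers summed to 3.50 to 8.13 TPM in wild type livers and 3.46 to 5.66 TPM in the knockout. The 10 markers of neutrophils and their precursors summed to 37.2, 47.1 and 19.7 TPM in wild type livers and were lower in the knockout, at 20.3, 18.3 and 13.9 TPM, with overlap and lowest in knockout replicate 3. Of these, 3 were abundant enough to test, all lower, beside 6030 of all 14155 genes. S100a8 (log2 -1.02) and S100a9 (-0.73) were lower at an unadjusted limma p under 0.05, beside 2.91% of all genes, and 0 passed after adjustment. Ctsg and Camp had no value in any library. At that p, 6 of 8 endothelial and 3 of 12 macrophage markers were higher, beside 5.12% of all genes. So were 3 of 5 tested B and plasma cell markers and 2 of 8 stellate cell markers, and 0 passed after adjustment.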

How the data were processed

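The authors deposited 1 matrix of genes by libraries for 6 liver libraries. Per the file headers the columns hold TPM. The authors stored them as log2 values, judging by their range and sums, and the sorted columns nearly coincide, as after quantile normalization, so that a shift of all genes between groups cannot be seen. FastQC, Trimmomatic and mm10 are named in the submitters' processing notes, while the sources used here name no aligner, quantification tool or strand setting. Values were turned back to TPM, with a blank as 0. Genes with a mean of at least 0.5 TPM (14155) were tested with limma 3.58.1 in R 4.3.3 on log2(TPM + 1), eBayes with trend, genotype as the only term, two-sided, Benjamini-Hochberg over all genes at 0.05. The test was checked on simulated data. TPM keeps no depth, and the 3 libraries per group set the precision.

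The members and lists were chosen with earlier results of these data known. Named members have an unadjusted p under 0.05, no overlap between groups, or the highest level, largest or smallest difference of their role, and in other pathway lists up to 3 genes with the smallest p. Other members were named after their values were seen. Alternatives changed the pseudocount (0.1, 0.5), the filter (none, 1 TPM), the scaling, the trend and the libraries, and added the replicate number as a block. A planned count of promoter motifs was not run, since promoter sequences were not used here. The fold changes are on the log2(TPM + 1) scale, which understates those of low genes.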

Additional observations from a re-analysis of the deposited data

How the results depend on the processing

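The number of members higher in the knockout, 38 of 40, was 30 of 32 with a filter of 1 TPM and 42 of 45 without one. On leaving out 1 library it was 32 of 35 to 39 of 40, beside 53.6% to 60.1% of all genes. The count moves with the number tested, so its size alone does not show that it is stable. The median log2 difference of the members, 0.64, was 1.005 with a pseudocount of 0.1, that of the mitotic members 0.996, and the former was 0.29 without WT replicate 2 and KO replicate 3 together. Leaving out 1 library gave members' medians of 0.33 to 0.85, S-phase medians of 0.33 to 0.87 and mitotic medians of 0.22 to 0.62. It gave 5 to 21 members higher at an unadjusted limma p under 0.05, of 35 to 40 tested. Over all genes that was 426 to 853 of 14082 to 14224. Higher without overlap were 9 to 21 members, beside 12.6% to 17.3% of all genes, where fewer libraries overlap less often. The count was 18 of 39 without WT replicate 1 (17.3% of all genes) and 18 of 40 without WT replicate 2 (14.0%). It was 17 of 36 without WT replicate 2 and KO replicate 3 together. Leaving out 1 library left 0 to 6 genes past the threshold over all genes. That number was 0 without a filter or with the replicate block and 3 without WT replicate 2 and KO replicate 3 together. Of the 40 members tested, 37 kept their sign under every alternative run. Gins1 turned from -0.002 to 0.044 without WT replicate 1, 0.02 without WT replicate 2, 0.17 without KO replicate 1 and 0.15 without KO replicate 2 (-0.32 to 0.17 without 1 library), Ccnb2 from 0.06 to -0.19 without WT replicate 3 and -0.11 without KO replicate 2 (-0.19 to 0.31), and Ccna2 from 0.021 to -0.015 after median scaling, -0.002 without KO replicate 3 (-0.002 to 0.041 without 1 library) and -0.014 without it and WT replicate 2. The lowest limma adjusted p of a member under any alternative was 0.277. Equal replicate numbers did not pair libraries (correlations of deviations from the group means -0.26, -0.27 and -0.05); with the replicate block, 8 members had an unadjusted p under 0.05 and 38 were higher. Depth, which is unknown, limits the mitotic genes most, since 4 of the 13 lie below the filter.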

Other observations

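Of 16 genes that hold the cell cycle back, 15 were tested, 8 higher and 7 lower in the knockout, near the 57.4% higher among all genes. At an unadjusted limma p under 0.05 there were 0, beside 5.12% of all genes higher and 2.91% lower, and 0 after adjustment, with a median log2 difference of 0.04. Fzr1, which keeps the anaphase-promoting complex active in G1, was at 6.24, 7.03 and 7.61 TPM across the wild type group, and at 8.28, 8.59 and 8.66 TPM in the knockout, without overlap (log2 0.26, SE 0.12, limma adjusted p 0.674). Cdkn2a, the locus of p16 and p19ARF, was at 0.255 TPM, 0.430 TPM and without a value in wild type livers and at 0.265, 1.39 and 0.673 TPM in the knockout. Ccng2, a cyclin linked to arrest, was at 14.3, 10.6 and 10.2 TPM in wild type livers and at 10.7, 9.62 and 6.58 TPM in the knockout, lowest in knockout replicate 3. Cdkn1a, the p21 inhibitor, was chosen after its values were seen and spread widely, at 6.94, 17.5 and 4.06 TPM across the wild type group, and at 7.83, 1.496 and 9.20 TPM in the knockout. In knockout replicate 3, where 10 of the 11 licensing genes were highest, Cdkn1a was the second highest of the 6 libraries.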
